A study of Mus musculus with 2 samples.

Results

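Cytochrome P450 genes were surveyed in mouse small intestine by sequencing of poly(A)+ RNA. They were taken as every row of the gene tables whose identifier maps to a protein-coding gene with a symbol of Cyp followed by a number, which gave 100 genes in 17 families and 40 subfamilies, of 21474 protein-coding genes. Another 15 pseudogenes and 1 antisense gene with Cyp symbols were set apart. P450 enzymes are haem proteins that insert an oxygen atom into their substrate, and most sit in the membrane of the endoplasmic reticulum, where cytochrome P450 reductase (Por) hands them electrons. A few work in mitochondria and take electrons from ferredoxin. In the small intestine they meet drugs and food compounds before the liver does, and others of the family act on fatty acids, eicosanoids, sterols, vitamin D and retinoic acid.

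The series holds 2 libraries, numbered in the labels as biological replicates 1 and 2 of 1 group. Both came from adult C57BL/6J mice, an inbred strain, aged 8 weeks, as tissue pooled from male and female littermates, under 1 donor entry for the strain and with separate biosample entries. No treatment is named, and neither the segment of the intestine nor the number of animals in a pool is given, so the spread between the libraries may be technical. With n = 2 and 1 group no test was made, and no p is given. Where a fold between the libraries is given below, it compares those libraries and not conditions.

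The libraries held 45472946 and 45822403 expected counts, the estimated fragments per gene. A count of 0 then allows a share of up to 6.60e-06% of replicate 1 and 6.55e-06% of replicate 2, taken as 3 counts, and this limit covers counting error only. Levels are given as TPM, transcripts scaled by length to a fixed total per library, in the order replicate 1, then replicate 2. All 12 enterocyte markers matched were at 1 TPM or more in both libraries, and their summed TPM was 9362 and 23764. The libraries stood apart in what else they held. A list of 18 exocrine pancreas genes held 286338 TPM of replicate 1 but 1817 TPM of replicate 2, with none at 0 counts, and 10 stomach genes summed to 19753 and 51.5 TPM. Of 10 genes known for the proximal small intestine, 7 were at least 2-fold lower in replicate 2 relative to the median gene and 1 was at least 2-fold higher. That 1 was Lct, which is also an enterocyte marker. Of 10 known for the distal small intestine, 8 had a mean of at least 1 TPM, of which 6 were at least 2-fold higher and none was as much lower. The pancreas and stomach RNA takes a share of the fixed total, and the median protein-coding gene had a log2 ratio of 0.67 (replicate 2 over replicate 1). Of the 12 enterocyte markers 7 were at least 2-fold higher in replicate 2 and 1 was as much lower. All 5 Paneth cell markers and 2 of 6 goblet cell markers were at least 2-fold higher, and none of either list was as much lower. Summed P450 levels were higher in the library with less pancreas and stomach RNA and more RNA of distal, enterocyte and Paneth markers, and the part of these in the values below was not tested.

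Of the 100 P450 genes, 24 reached 1 TPM in both libraries, against 49.3% of all protein-coding genes. Another 3 reached it in replicate 1 only (Cyp2c29, Cyp4f15 and Cyp4a10) and 3 in replicate 2 only (Cyp2u1, Cyp2j9 and Cyp7b1). The other 70 were under 1 TPM in both libraries, and 30 of these had no count in either, against 22.0% of all protein-coding genes. A mean of at least 10 TPM was reached by 17 members, against 26.3% of all protein-coding genes, and 12 more had a mean between 1 and 10 TPM. Most of the family was thus at or near 0 in this tissue, and the RNA came from few genes. The family summed to 823.0 and 2246 TPM (1535 ± 1007, SD, n = 2), or 0.0823% and 0.225% of all TPM. With the pancreas and stomach genes left out of the total, the sums were 1186 and 2251 TPM. In a tissue sample, fewer cells of a type and less RNA per cell cannot be told apart. The 10 members with the highest mean held 84.4% and 90.6% of the summed TPM.

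**Figure D1:**
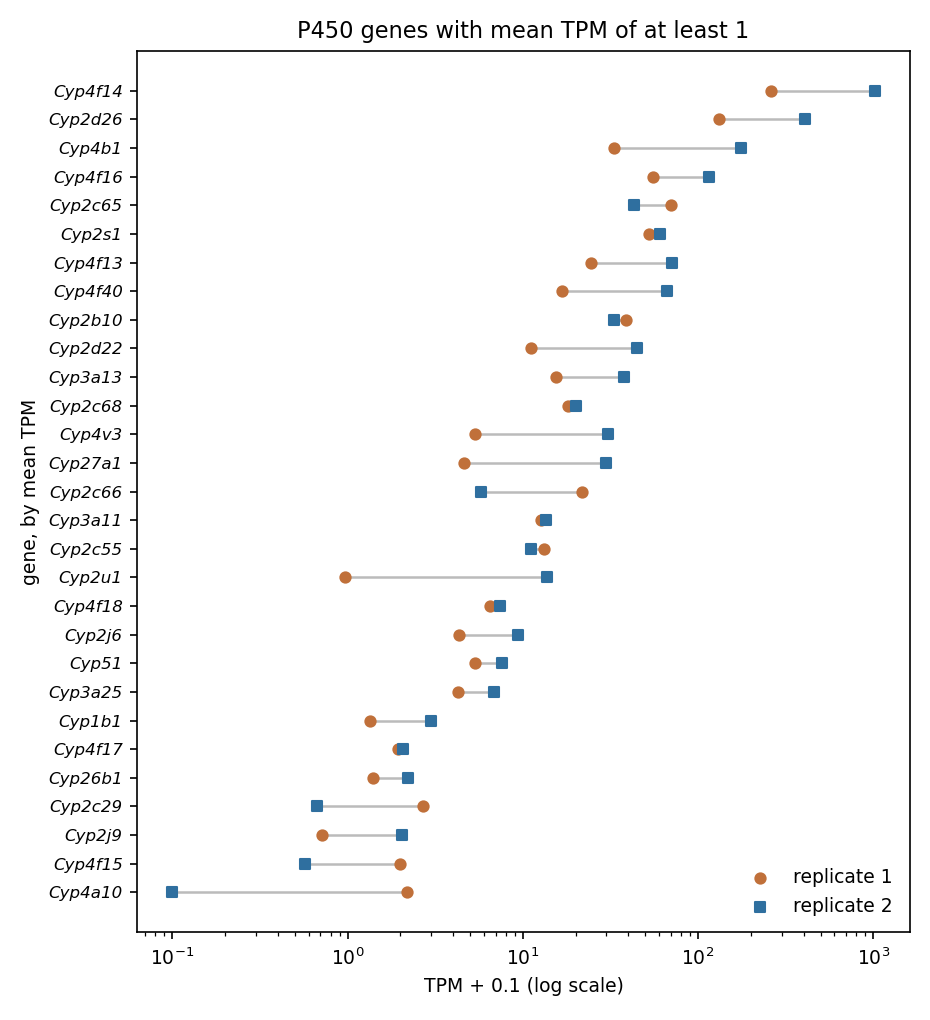
TPM plus 0.1 on a log axis for the 29 P450 genes with a mean TPM of at least 1, ordered by mean; circles are replicate 1, squares are replicate 2 and the grey line joins them. Cyp4f14 is at the top in both libraries, and Cyp2c65, Cyp2b10, Cyp2c66, Cyp2c55, Cyp2c29, Cyp4f15 and Cyp4a10 are the 7 genes whose circle lies to the right of the square.

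Family 4, whose enzymes hydroxylate fatty acids and eicosanoids at or near the end of the chain, held the largest share. Its 20 members summed to 408 TPM in replicate 1 against 1486 TPM in replicate 2, which was 49.6% and 66.2% of the family's TPM. Of these 20 genes, 8 reached 1 TPM in both libraries and 5 had no count in either. Cyp4f14, an enzyme that acts on leukotriene B4, was the highest P450 gene in both libraries. Its level was 261 TPM against 1018 TPM (639 ± 535, SD, n = 2), from 26151 and 79769 counts. It alone held 31.7% and 45.3% of the summed P450 TPM. Differences of 2-fold between the libraries are read below relative to the median gene, as log2((TPM + 1) / (TPM + 1)) minus its median over 11475 protein-coding genes. On that scale, called the centred log2 ratio below, Cyp4f14 stood at 1.30.

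Cyp4f14 (ENSMUSG00000024292.10, chr17:32905070-32917342, minus strand) lies in a cluster of 8 Cyp4f genes at chr17:32452723-32947402 (mm10), a span of 495 kb. All 8 had counts, but levels of neighbours were far apart. Cyp4f16, which lies on the other strand from Cyp4f14, had 55.3 and 115 TPM. Cyp4f13 had 24.4 and 70.6 TPM, and Cyp4f40 had 16.7 and 66.6 TPM. Beside them, Cyp4f17 had 1.83 and 1.98 TPM and Cyp4f15 had 1.89 and 0.47 TPM. So 4 genes of the cluster were above 10 TPM in both libraries and the other 4 were below 2 TPM. Cyp4f18, an enzyme of white blood cells that is encoded on chromosome 8 outside this cluster, had 6.38 and 7.32 TPM. The 9 immune markers had a median centred ratio of -0.04, with Cd74 at least 2-fold higher in replicate 2 (722 and 3399 TPM) and Lyz2 as much lower (85.4 and 60 TPM), and their part in the level of Cyp4f18 was not tested.

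Cyp4b1 and Cyp4v3, also of family 4, stood well above 10 TPM in replicate 2. Cyp4b1, which acts on fatty acids and on foreign compounds, had 32.9 TPM in replicate 1 against 176 TPM in replicate 2, with a centred log2 ratio of 1.72. Cyp4v3, the mouse counterpart of a fatty acid hydroxylase known from an inherited eye disease, had 5.21 and 30.6 TPM, with a ratio of 1.68. The Cyp4a genes, known as targets of the fatty acid receptor Ppara in liver and kidney, stood at the other end. Their 8 members summed to 2.13 and 0.02 TPM, and 5 had no count in either library. Cyp4a10 made up nearly all of it, with 199 counts (2.08 TPM) in replicate 1 and 0 counts in replicate 2. Against the 3 counts that a count of 0 allows, its share of counts was at least 66.7-fold higher in replicate 1. Ppara itself had 2.99 and 5.92 TPM. The list of 5 kidney markers summed to 5.73 TPM in replicate 1 against 0.08 TPM in replicate 2, nearly all of it Nphs1, with Kap and Slc22a6 at 0 counts in both, and its part in the level of Cyp4a10 was not tested.

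**Figure D2:**
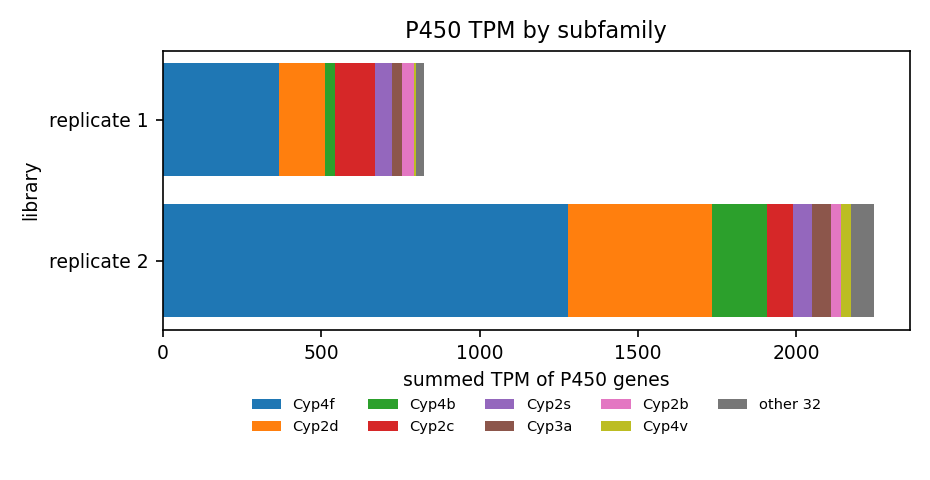
Summed TPM of P450 genes in each library, as stacked bars coloured by subfamily; the 8 subfamilies with the highest mean are shown and the other 32 are joined in dark grey. Cyp4f is the widest block in both bars, 368 and 1280 TPM, and Cyp2c and, by less, Cyp2b are wider in replicate 1 than in replicate 2.

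Genes known for drugs and other foreign compounds (31 members: family 3, and family 2 without Cyp2c, 2j, 2r, 2s, 2u and 2w) came next by sum. They held 215 TPM in replicate 1 against 545 TPM in replicate 2, but 13 of the 31 had no count in either library and 6 reached 1 TPM in both. Cyp2d26 supplied most of this sum, with 132 and 408 TPM. Cyp2d22, at the far end of the Cyp2d cluster from Cyp2d26 on chromosome 15, had 11.1 and 44.4 TPM. The Cyp2d cluster holds 8 members and these were the only 2 of them at 1 TPM or more in both libraries. Cyp2b10, a target of the foreign-compound receptor Nr1i3 (CAR), had 38.6 and 32.9 TPM. Its major coding transcript had 30.2 and 32.9 TPM, and a retained-intron model had 7.83 and 0 TPM. The other 4 Cyp2b genes were under 1 TPM. Nr1i3 had 14.8 and 23.7 TPM.

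Among Cyp3a genes, known for their broad range of drug substrates, Cyp3a13 was the highest, with 15.4 TPM in replicate 1 against 37.7 TPM in replicate 2. Cyp3a11, a target of the receptor Nr1i2 (PXR), had 12.6 and 13.5 TPM, and Cyp3a25 had 4.15 and 6.78 TPM. The other 6 Cyp3a genes were under 1 TPM in both libraries. Nr1i2 had 20.4 and 59.5 TPM. Raw levels of Cyp3a11 differed by a factor of 1.07 between the libraries, while those of Cyp3a13 differed by 2.45. Cyp3a13 lies apart from the cluster of the other 8 Cyp3a genes on chromosome 5. Family 1, which acts on aromatic compounds under the dioxin receptor Ahr, was low. Cyp1a1 had 0.40 and 0.64 TPM, Cyp1a2 had 0.02 and 0.00 TPM, and Cyp1b1 had 1.25 and 2.91 TPM. Ahr had 2.89 and 5.05 TPM. Cyp1a2 and Cyp2e1, which are abundant in liver, were under 0.1 TPM. The list of 11 liver markers came to 34.0 and 44.0 TPM in sum, with Cps1 at 23.95 and 31.6 TPM. Of the others Ttr had 8.28 and 2.43 TPM and Serpina1b had 0.93 and 6.49 TPM, Alb had 22 counts in replicate 1 and 0 in replicate 2, and Fga, Fgb and Mup3 had no count.

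The Cyp2c genes, whose enzymes act on drugs and turn arachidonic acid into epoxides, had their larger sum in replicate 1. Among the 5 subfamilies with a mean sum above 50 TPM they were alone in this. Below that cut, Cyp2b (38.6 and 33.5 TPM), Cyp4a (2.13 and 0.02 TPM) and some subfamilies under 1 TPM also had the larger sum in replicate 1. The 15 Cyp2c members summed to 126 and 81.6 TPM, which was 15.3% and 3.63% of P450 TPM. Cyp2c65 led, with 70.4 TPM in replicate 1 against 43.3 TPM in replicate 2. Cyp2c68 had 18.0 and 20.1 TPM, Cyp2c66 had 21.6 and 5.70 TPM, and Cyp2c55 had 13.1 and 11.0 TPM. Cyp2c29, a main liver form, had 2.58 and 0.57 TPM. The other 10 members were under 1 TPM, and 5 of these had no count. Of the subfamily, 14 share a cluster at chr19:39007019-40187333 (mm10), 1180 kb long, of which Cyp2c55, Cyp2c65, Cyp2c66 and Cyp2c29 are the first 4 genes in chromosome order. By gene total, all 5 members with a mean of at least 1 TPM had a negative centred log2 ratio, from -2.42 for Cyp2c66 to -0.51 for Cyp2c68. The protein-coding transcript of Cyp2c66 went the other way, with 1.98 TPM in replicate 1 and 5.48 TPM in replicate 2. Without centring Cyp2c68 turned to the other side of 0, and the other 4 did not.

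**Figure D3:**
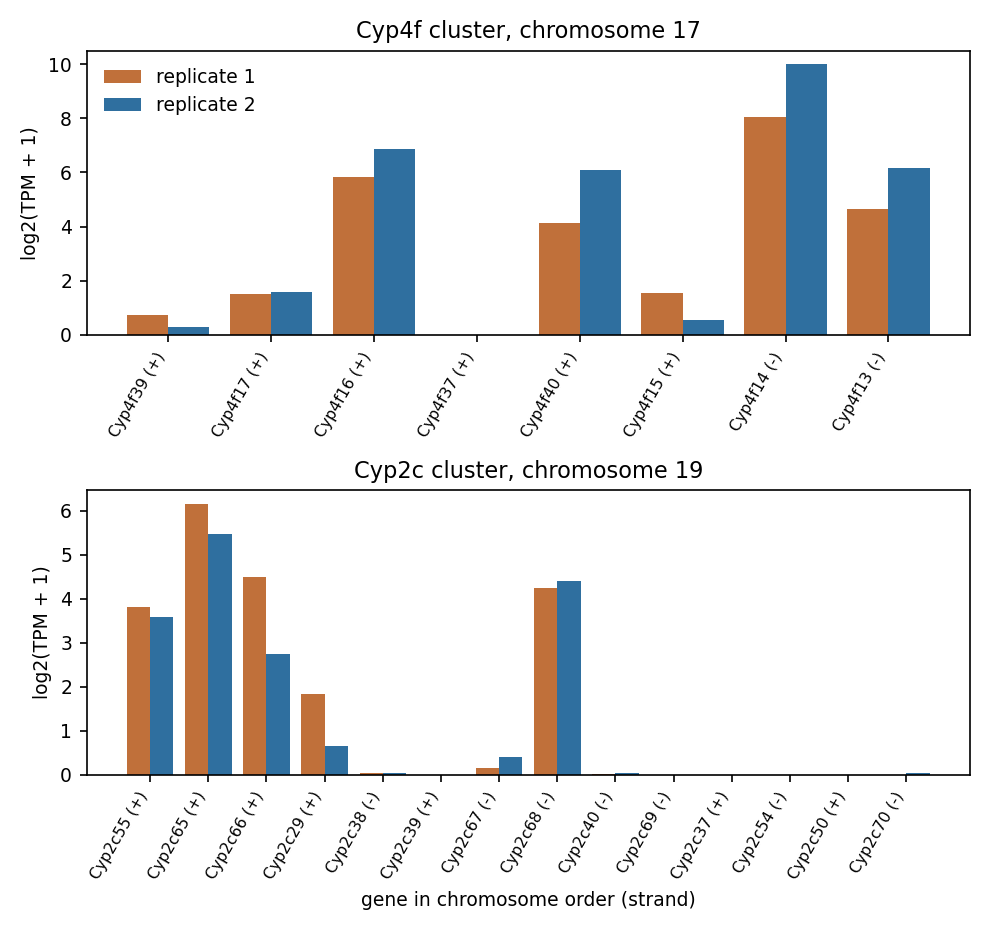
Levels, as log2(TPM + 1), of the genes of the Cyp4f cluster on chromosome 17 and the Cyp2c cluster on chromosome 19, in chromosome order with the strand in brackets; orange bars are replicate 1 and blue bars replicate 2. In the Cyp4f cluster 4 of the 8 genes stand above the rest, and in the Cyp2c cluster the level sits in the first 4 genes and in Cyp2c68.

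The 250 bases before the RefSeq start are shown for the first 3 genes of the Cyp2c cluster (GRCm38.p6, the mm10 build, plus strand). They were chosen because these neighbours were all transcribed and, by gene total, all lay on the lower side in replicate 2. Cyp2c55 is at chr19:39006769-39007018, Cyp2c65 at chr19:39060756-39061005 and Cyp2c66 at chr19:39113648-39113897. Capitals mark exact matches to TATAAA (letters of the TATA box), CAAAGTC (the core of sites bound by HNF4) and AGATAA (a site of GATA factors).
Cyp2c55: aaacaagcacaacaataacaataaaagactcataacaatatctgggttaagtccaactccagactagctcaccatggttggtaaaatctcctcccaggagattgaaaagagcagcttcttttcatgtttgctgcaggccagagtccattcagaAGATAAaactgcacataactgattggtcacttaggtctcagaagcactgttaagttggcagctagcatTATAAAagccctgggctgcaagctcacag
Cyp2c65: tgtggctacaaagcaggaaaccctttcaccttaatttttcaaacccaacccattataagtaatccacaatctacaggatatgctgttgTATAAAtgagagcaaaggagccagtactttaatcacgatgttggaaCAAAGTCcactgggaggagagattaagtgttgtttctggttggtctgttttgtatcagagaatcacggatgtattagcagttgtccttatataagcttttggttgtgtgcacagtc
Cyp2c66: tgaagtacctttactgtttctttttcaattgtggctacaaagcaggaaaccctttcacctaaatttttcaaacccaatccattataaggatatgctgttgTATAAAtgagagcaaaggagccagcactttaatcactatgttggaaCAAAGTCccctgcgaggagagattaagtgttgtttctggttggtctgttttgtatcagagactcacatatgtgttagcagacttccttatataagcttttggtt
The windows of Cyp2c65 and Cyp2c66 were 94.1% identical over 221 aligned bases and held the same pair of words in the same order. TATAAA began at -162 in Cyp2c65 and -150 in Cyp2c66, counted from the start, and CAAAGTC at -116 and -104. Closer to the start, both windows also held tatataag, left in lower case because it is not an exact match. Which of these words serves as a TATA box was not tested. The window of Cyp2c55 was 63.8% identical to that of Cyp2c65 and held TATAAA at -29 and AGATAA at -97. Of the 29 members with a mean of at least 1 TPM, 25 had a RefSeq window. CAAAGTC, on either strand and within 250 bases before the start, was found in 6 of the 25: Cyp2c29, Cyp2c65, Cyp2c66, Cyp2c68, Cyp3a11 and Cyp4f18. It was found in 4.33% of all 27025 genes with a window. TATAAA was in 7 of the 25 and in 14.3% of all genes, AGATAA in 5 and in 11.4%, and GCGTG (the core of the dioxin receptor's site) in 8 and in 30.9%. AGATAA and TATAAA can share letters at their ends, and a match describes the letters only. Hnf4a, a factor that binds the HNF4 site, had 143 and 325 TPM, and its relative Hnf4g had 12.4 and 45.03 TPM.

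Cyp2c65 and Cyp2c66 are near copies, which limits how well reads can be told apart. Their transcripts were 96.3% identical over 1614 aligned bases, against 74.2% for Cyp2c65 with Cyp2c55. Of all stretches of 76 bases, the read length, in the transcripts of Cyp2c66, 10.6% occurred letter for letter in Cyp2c65, and 11.2% the other way. Their levels are therefore less certain than those of Cyp2c55, though most stretches tell the pair apart. Cyp2c68 shared 28.1% of its stretches with other genes, most of them with Cyp2c40, which was under 0.1 TPM. Cyp4v3 shared 27.3% with the overlapping Gm45753, Cyp4a10 shared 18.1%, mostly with Cyp4a32, and Cyp4f16 shared 10.3%, mostly with Cyp4f37. The stretches came from GENCODE M21 sequences of the transcripts. For some members, Cyp4v3 among them, these are longer than the models the reads were quantified on. Among the 29 members with a mean of at least 1 TPM, 11 shared none, and Cyp4f14 shared 0.128%.

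Cyp2c66 (ENSMUSG00000067229.3, chr19:39113898-39187072, mm10, plus strand) differed between the libraries in its transcripts as well as in its level. The tables hold 2 of them. Cyp2c66-201 is protein-coding, 1630 nt long, and Cyp2c66-202, 1771 nt long, is classed by GENCODE as a target of nonsense-mediated decay, the pathway that removes RNAs with an early stop codon. In replicate 1 the coding form had 1.98 TPM and the decay form 19.7 TPM. In replicate 2 the coding form had 5.48 TPM and the decay form 0.22 TPM. The deposited share of the coding form was thus 9.14% in replicate 1 and 96.2% in replicate 2 (52.7 ± 61.5, SD, n = 2). The counts behind these shares were 140 for the coding form and 1534 for the decay form in replicate 1, and 305 and 13.4 in replicate 2. The authors' intervals for the decay form ran from 18.2 to 20.6 TPM in replicate 1 but from 7.85e-05 to 1.77 TPM in replicate 2, and did not overlap. These intervals have no stated level, are given per library and do not measure the spread between mice or pools. For 2 members with a mean of at least 1 TPM, the level of the gene lay outside its own interval in a library.

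The decay form lacks exon 2, at chr19:39141891-39142053 (mm10, plus strand, a coding exon), which is shown here because its 163 bases are not a multiple of 3. Joining exon 1 to exon 3 shifts the reading frame, and the first stop then falls inside exon 3. The other sequence shows that join, with the last 30 bases of exon 1 followed by the first 39 bases of exon 3 and the stop codon (chr19:39142311-39142313) in capitals.
Exon 2: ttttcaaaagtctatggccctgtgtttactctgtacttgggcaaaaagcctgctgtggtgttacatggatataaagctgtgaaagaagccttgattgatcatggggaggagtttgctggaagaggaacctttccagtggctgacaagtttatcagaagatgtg
Join of exons 1 and 3: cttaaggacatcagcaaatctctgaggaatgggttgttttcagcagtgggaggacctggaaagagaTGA
This leaves 68 codons before the stop, in place of 490 in the coding form, with 6 exons after the one that holds the stop. The 2 models also differ at their ends: the decay form has 316 more bases at the 3′ end and the coding form 12 more at the 5′ end. The tables give no junction reads, so they do not tell whether reads over exon 2 or over the longer 3′ end set the share. No stretch of 76 bases over the new join, and none that touches the longer 3′ end, occurred letter for letter in Cyp2c65. Of the stretches that touch exon 2, 4.62% did. The longer 3′ end is still close to Cyp2c65, with 286 of 310 aligned bases identical (92.3%), and Cyp2c65 was the higher in replicate 1 as the decay form was. Whether reads of Cyp2c65 were assigned to the decay form was not tested.

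**Figure D4:**
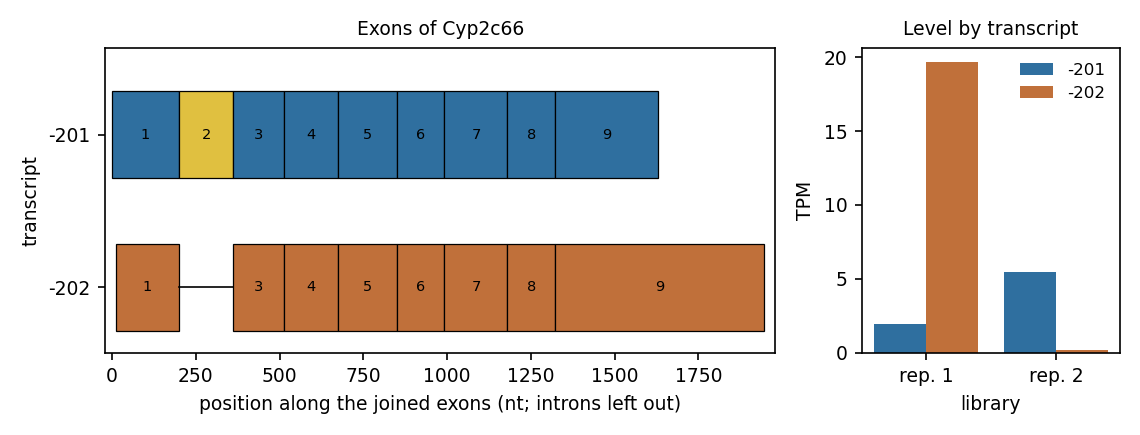
Left, the exons of both Cyp2c66 transcripts to scale along the joined exons in nucleotides, with introns left out, exon 2 in yellow and its absence in the decay form as a thin line. Right, TPM of each transcript in each library as bars from 0; in replicate 1 the decay form stands at 19.7 TPM and the coding form at 1.98 TPM, and in replicate 2 the coding form is the higher at 5.48 TPM.

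A gap as wide as that of Cyp2c66 was rare. Its transcripts were singled out with earlier results of these data known, so its place among all genes is a description and no support. Cyp2c66 also reached a mean of 10 TPM only through replicate 1, with 21.6 TPM there and 5.70 TPM in replicate 2. Over 4243 protein-coding genes with a mean of at least 10 TPM and more than 1 transcript, 0.754% had a gap of at least 50 percentage points in the share of their major transcript, and 4 had a wider gap than Cyp2c66. Its gap was 87.0 points, where the median gene had 4.39. Of the 17 members with a mean of at least 10 TPM, 8 had 1 transcript in the tables and 9 had more. Cyp2c66 was the only one of the 9 with a gap of 50 points or more. Cyp2b10 followed, with 78.1% and 100% in its major transcript, and its retained-intron model held 20.3% in replicate 1 and 0% in replicate 2. Cyp4f16 had the most divided output, with 35.1% and 40% in its major transcript of 9, and 54.2% and 59.5% in protein-coding ones. The other 6 differed by under 10 points. Cyp4f14 used 2 coding transcripts of equal length, the major one at 64.0% and 67.1%. Below 10 TPM, Cyp3a25 had 62.8% and 43.9% of its TPM in a model of nonsense-mediated decay.

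P450 genes that act on the body's own sterols and signals were led by Cyp27a1. This mitochondrial sterol hydroxylase, of bile acid synthesis and vitamin D activation, had 4.50 TPM in replicate 1 against 29.7 TPM in replicate 2, with a centred log2 ratio of 1.81. The other 5 members of the bile acid and oxysterol list were each at 1.2 TPM or below. Cyp7a1, the rate-limiting enzyme of the classic route in liver, had no count in either library, and Cyp8b1 had 0.02 and 0.00 TPM. The authors' interval for Cyp7a1 still reached 15.7 and 5.61 TPM. Nearly all of that came with its second model, which is 228 nt long and has an effective length of 3.71 and 13.4 nt. Cyp7b1, which acts on oxysterols, had 0.36 and 1.2 TPM, and Cyp39a1 and Cyp46a1 were at 0.50 TPM or below. Of the other vitamin D enzymes, the 25-hydroxylase Cyp2r1 had 0.43 and 0.36 TPM, the 1-alpha-hydroxylase Cyp27b1 had 0.23 and 0.18 TPM, and the catabolic Cyp24a1, a classic target of the vitamin D receptor, had no count. The receptor Vdr itself had 80.4 and 124 TPM.

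Cyp51, which removes a methyl group from lanosterol in cholesterol synthesis, had 5.21 and 7.48 TPM. Of the retinoic acid hydroxylases, Cyp26b1 had 1.29 and 2.10 TPM while Cyp26a1 and Cyp26c1 did not exceed 0.05 TPM. None of the 6 genes of steroid hormone synthesis reached 1 TPM, and Cyp11b2 and Cyp19a1 (aromatase) had no count. Cyp17a1 had 0.09 and 0.76 TPM, and Cyp11a1, which makes pregnenolone from cholesterol, had 0.21 and 0.16 TPM. Cyp2s1, known from epithelia outside the liver, had 52.6 and 60.7 TPM (56.7 ± 5.73, SD, n = 2), the smallest SD of the 6 members with a mean above 50 TPM. Cyp2u1, a fatty acid hydroxylase, had 0.87 TPM in replicate 1 against 13.6 TPM in replicate 2, from 93 and 1132 counts. Among the arachidonic acid epoxygenases of subfamily 2j, Cyp2j6 led with 4.22 and 9.29 TPM, and 7 of the 8 were under 1 TPM in replicate 1. Ephx2, the soluble hydrolase that opens the epoxides these enzymes make, had 52.8 and 74.7 TPM.

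Relative to the median gene, 7 of the 29 members with a mean of at least 1 TPM were at least 2-fold higher in replicate 2, or 24.1%, against 4.48% of 11475 protein-coding genes. These were Cyp2u1, Cyp27a1, Cyp4b1, Cyp4v3, Cyp4f14, Cyp4f40 and Cyp2d22. Lower by the same factor were 5, or 17.2%, against 5.76%: Cyp2c66 (by gene total), Cyp4a10, Cyp2c29, Cyp4f15 and Cyp2c65. Of these, Cyp4a10, Cyp2c29 and Cyp4f15 were under 1 TPM in replicate 2 and passed the filter on the mean only through replicate 1. Cyp2u1 was under 1 TPM in replicate 1 and passed only through replicate 2. With a mean of at least 5 TPM, which leaves out those 3 lower genes, 7 of 22 members were higher and 4 lower. The median gene then had a log2 ratio of 0.78 in place of 0.67, and this shift alone brought Cyp2c55 and Cyp2b10 just past the line to the lower side. Cyp2u1 and Cyp27a1 were under 5 TPM in replicate 1 and passed this filter only through replicate 2. The same setting gave 362 higher and 425 lower of 7623 protein-coding genes. The values of Cyp4a10 depend on the pseudocount of 1, since it had no count in replicate 2. At a mean of at least 1 TPM, the other 17 of the 29 lay between, with Cyp2d26 just inside at 0.96 and Cyp2c55 at -0.90. The family thus spread to both sides, with a median of -0.07 and quartiles at -0.59 and 0.96, against -0.34 and 0.33 for all genes. That median changed sign with the filter and the centring, to 0.23 for members with a mean of at least 5 TPM and 0.29 when centred on the spike-in RNAs. The 12 genes were picked for a centred ratio of at least 1 to either side, and 5 other scalings moved each of them by less than 1. That none changed sign was therefore set by the choice of genes and is no support. Under some of these scalings 2 of the 5 lower genes came inside 2-fold. Cyp2c65 stood at -0.99 when centred on the spike-ins and at -0.69 without centring, and Cyp4f15 stood at -0.98 without centring. Of the 17 between, 8 changed sign without centring. In raw TPM 22 of the 29 were higher in replicate 2, where the median protein-coding gene was also higher, with a log2 ratio of 0.67. The share of all protein-coding genes that were higher in raw TPM was not counted, so the 22 are not read as a result about the family.

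**Figure D5:**
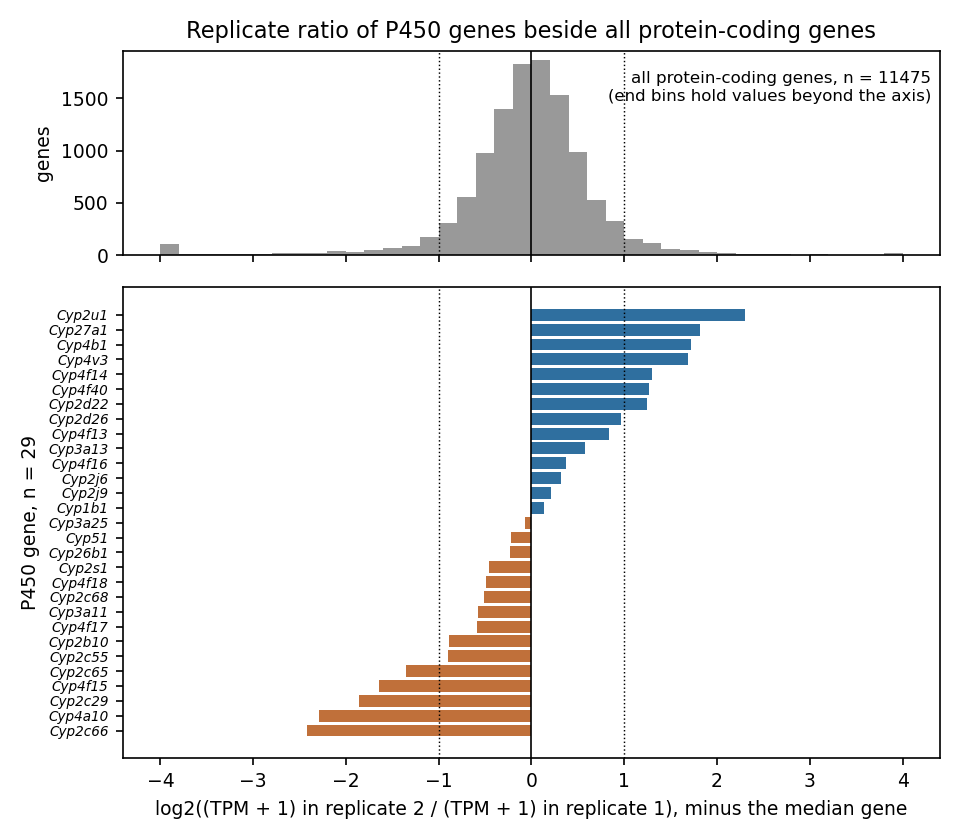
Upper panel, number of protein-coding genes (n = 11475) by log2 ratio of TPM + 1, replicate 2 over replicate 1, minus the median gene, with dotted lines at 2-fold. Lower panel, the same ratio for the 29 P450 genes with a mean TPM of at least 1: 7 bars pass the right line and 5 the left, and Cyp2u1 and Cyp2c66 (-2.42) are the ends.

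The genes that serve P450 enzymes with electrons and haem were nearly all transcribed. All 10 genes of the electron supply reached 1 TPM in both libraries, with centred ratios from -0.13 to 0.40, and none passed 2-fold. Por, the reductase of the endoplasmic reticulum, had 97.7 and 160 TPM. Summed P450 TPM per unit of Por TPM was 8.42 and 14.0. The mitochondrial pair Fdx1 and Fdxr, which serve Cyp27a1, had 17.2 and 27.9 TPM and 6.27 and 10.03 TPM. Of 13 genes of haem synthesis and breakdown, 12 reached 1 TPM in both libraries, 2 were at least 2-fold lower in replicate 2 and none was as much higher. Alas1, the first enzyme of haem synthesis, had 71.2 and 99.8 TPM, while the 2 lower genes were Hmox1, which breaks haem down, at -1.32 (4.10 and 2.24 TPM) and Alad just past 2-fold (114 and 90.0 TPM). Of 24 regulators of P450 genes, 22 reached 1 TPM in both libraries. Among the 22 with a mean of at least 1 TPM, Hnf4g was the only one at least 2-fold higher in replicate 2 (12.4 and 45.03 TPM), and Nr0b2, a repressor of bile acid synthesis, the only one as much lower (18.5 and 1.47 TPM). Onecut1, below that mean, had 139 counts in replicate 1 and 0 in replicate 2.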

How the data were processed

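Stranded paired reads of 76 nt from 2 libraries (1 group, n = 2) had been quantified by the authors, per the file headers and labels against mm10 and GENCODE M4. Aligner and quantifier: not given in the sources used here. The deposited tables hold expected counts per gene and transcript, not whole and not normalized. The authors' TPM values are scaled by effective length to a fixed total over all features, spike-ins included, and their deposited FPKM values by length and library total. The deposited percent values are each transcript's share of its gene's TPM. The deposited interval bounds are a signal on the TPM scale with no stated level.

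GENCODE M21 supplied gene symbols, types and positions by stable identifier (42462 of 43346 genes matched), and transcript sequences. Upstream windows came from RefSeq (GRCm38.p6, with 77 of 100 members matched). In the tables Cyp4v3 includes a transcript that M21 names Klkb1-201. Clusters are 3 or more members with gaps of at most 500 kb. Detection was 1 TPM in both libraries, the pseudocount 1 and the threshold 2-fold.

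The members, gene lists and rule were chosen with earlier results of these data known. The rule names any member, with values for those with a mean of at least 10 TPM or, at 1 TPM, in a functional list, and other genes only from the lists. Members under a mean of 1 TPM whose values are printed were added outside the rule, after their values were seen. With 1 library a side no test was run. Alternatives were other TPM minimums, filters, pseudocounts and units, TMM (edgeR 4.0.16) and DESeq2 1.42.0 size factors on rounded counts (R 4.3.3), spike-in centring and single replicates. Only the step that calls 2-fold differences between the libraries was tested on simulated data. Python 3.11.15 (numpy 2.4.6, pandas 2.3.3) gave all other values.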

Additional observations from a re-analysis of the deposited data

Results flagged for a closer look

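Some rows outside the 100 protein-coding genes held more than the 3 counts that a count of 0 allows. The Cyp2d41-ps pseudogene on chromosome 15 had 67 counts in replicate 2 and 3 in replicate 1. Cyp2d37-ps, also on chromosome 15, had 6 counts in replicate 1 and 0 in replicate 2. Cyp21a2-ps, a near copy of Cyp21a1, had 11.87 counts in replicate 2 and 2.13 in replicate 1. Cyp4f41-ps on chromosome 17 had 4 counts in replicate 1 and 0 in replicate 2. How far these reads came from the coding copies was not tested.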

How the results depend on the processing

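No paired analysis was possible because the libraries form 1 group. Counting genes with at least 10 expected counts in both libraries gave 40 detected members in place of 24; other minimums and units gave 18 to 27. Each library alone gave 27 detected members, a summed TPM of 823.0 to 2246, a top-10 share of 84.4% to 90.6% and a coding share of Cyp2c66 of 9.14% to 96.2%. The median member's ratio, -0.07, became 0.23 for a mean of at least 5 TPM, 0.29 centred on spike-ins and -0.20 with no filter. Without centring, an alternative chosen after seeing the data, it was 0.60, and the counts of 7 higher and 5 lower became 11 and 3. Of all 11475 protein-coding genes, 2811 were then higher and 314 lower. Other settings gave 7 to 10 higher and 4 to 7 lower. With no filter on low values, 10 of 100 members were higher and 4 lower, against 1593 and 428 of 21474 protein-coding genes. The excess of higher members over all genes thus depends on the filter. Spike-in centring gave 1244 higher and 423 lower of all protein-coding genes, in place of 514 and 661. No ratio exists without a replicate. For the medians the cause was not tested. Members under 1 TPM rest on few counts, which limits their order.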
